A study of Homo sapiens with 6 samples.

Results

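The adherens junction genes described here are 9 rows of the count table, out of 27264 gene rows in all. They were chosen by symbol, and each symbol matched 1 Ensembl identifier. They comprise 3 cadherins (CDH1, CDH3 and CDH17), 3 catenins (CTNNB1, CTNNA1 and CTNND1), 2 nectins (NECTIN2 and NECTIN4) and AFDN. All 9 had reads in all 6 libraries, and 8 passed the filter on low counts that precedes the tests. NECTIN4 did not pass it.

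Classical cadherins are membrane proteins whose outer domains bind the same cadherin on a neighbouring cell in the presence of calcium. Their tails bind beta-catenin and p120-catenin, and alpha-catenin joins beta-catenin to the actin cytoskeleton. Nectins form a second adhesion system at the same junction and are tied to actin by afadin. In the colon epithelium these proteins hold neighbouring cells together, and CDH1 is a textbook target of repression by ZEB factors during epithelial-to-mesenchymal transition (EMT).

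The cells were DLD-1, an epithelial colorectal cancer line of the colon. The 2 conditions were ZEB2 WT +DOX (pDOX), whose cells the labels call mesenchymal, and ZEB2 WT -DOX (mDOX), whose cells they call epithelial. The library names also carry TR21 after the name of the line (DLD.1_TR21), which the labels do not explain. DOX is the usual short form of doxycycline. Each of the 3 clones, WT2, WT5 and WT37, gave 1 library per condition, so n = 3 per condition, and the design text takes the clones as biological replicates. The samples listed include 0 libraries with DOX from cells without the ZEB2 background, so effects of DOX itself and of ZEB2 cannot be told apart. The question is which genes differ with DOX, and by how much the clones differ among themselves.

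Libraries held 5440093 to 7164426 reads in genes. ZEB2 itself had 20, 9 and 22 reads in pDOX libraries of WT2, WT5 and WT37, against 9, 5 and 3 reads in mDOX libraries. The kit reads transcript ends, and transcripts of a construct that lacks ZEB2's own end would be missed. Of the markers of other cell types, fibroblast genes summed to 0 to 1.70 CPM (counts scaled to a common library size) in pDOX and 0.580 to 1.78 in mDOX libraries (5 of 7 listed genes in the table, COL1A2 at 0 throughout). Endothelial genes summed to 0 to 0.285 CPM in pDOX and 0 to 0.4995 in mDOX libraries (3 of 5, PECAM1 at 0). Leukocyte genes summed to 5.10 to 11.1 CPM in pDOX and 4.83 to 9.31 in mDOX libraries (5 of 6, LYZ at 0), of which CD14 was the 1 gene that passed the filter. Colon epithelial markers summed to 3755 to 5213 CPM in pDOX and 5976 to 7839 CPM in mDOX libraries, and 8 of 10 passed the filter. KRT8, KRT18, KRT19, EPCAM and CDX2 were abundant, while CDX1 was at 0, LGALS4 had 1 to 11 reads and VIL1 had 6 to 94 reads per library. Transcripts typical of mesenchymal cells were scarce in the libraries that the labels call mesenchymal. VIM (vimentin) had 5, 8 and 15 reads in pDOX and 1, 3 and 5 reads in mDOX libraries of WT2, WT5 and WT37, and CDH2 (N-cadherin) had 1 to 7 reads per library.

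The levels below are CPM of reads in genes, scaled by the trimmed mean of M values (TMM). Because each read marks 1 transcript end, they were compared between genes without a correction for length. Whether the loss of reads given to no gene differed between genes was not examined. CDH1 was the most abundant of the 9 in every library, at 446 to 869 CPM. CTNNB1 followed at 327 to 401 CPM, below CDH1 and above every other member in all 6 libraries. NECTIN2, CTNND1, CDH3 and CTNNA1 came next, with overlapping ranges between neighbours in that order. AFDN, at 46.1 to 68.1 CPM, lay below CTNNA1 and above CDH17 in all 6 libraries. NECTIN4 was the scarcest, with 1 to 17 reads per library.

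**Figure D1:**
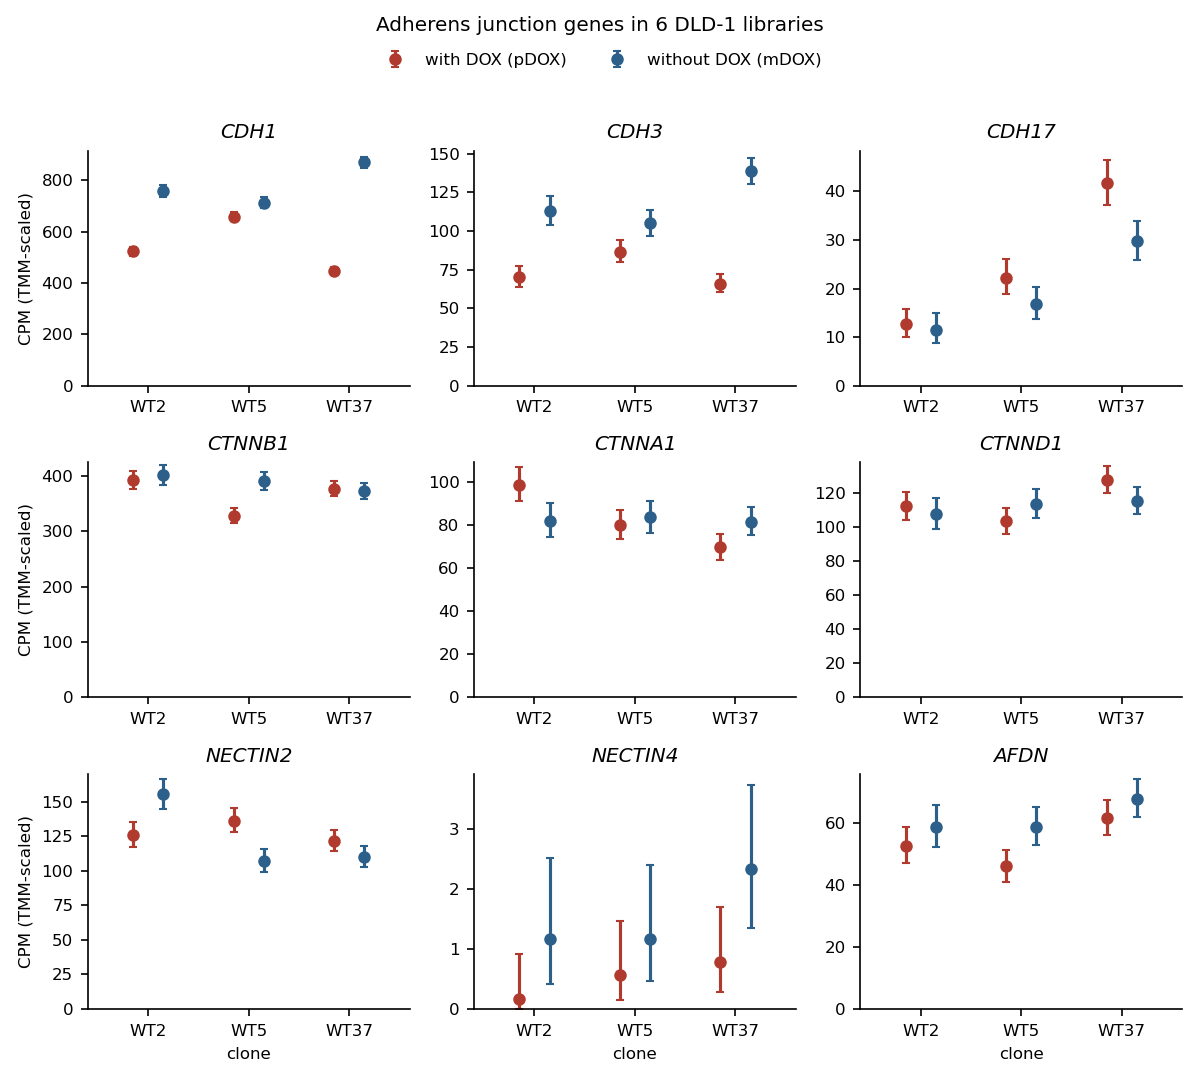
Level of each of the 9 genes (y axis, TMM-scaled CPM, starting at 0) in the 6 libraries, by clone (x axis), with pDOX in red and mDOX in blue. Bars are exact 95% Poisson intervals of the count, which cover counting error only. CDH1, CDH3 and NECTIN4 lie lower in pDOX than in mDOX in all 3 clones, without overlap between the conditions. NECTIN4 rests on 1 to 17 reads per library, and how many of all genes lack such overlap was not counted.

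The clearest difference with DOX was in the 2 classical cadherins. CDH3 and CDH1 were lower with DOX in 3 of 3 clones, most in WT37 and least in WT5. CDH3 was the 1 member that passed edgeR's test across all genes, and it did so with the clone as a block and not without it. CDH17, the third cadherin, was higher with DOX in all 3 clones but did not pass.

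CDH1 (ENSG00000039068, chromosome 16, 68737225 to 68835548, plus strand, GRCh38) encodes E-cadherin, the main cadherin of epithelia. It had 522, 658 and 446 CPM in pDOX libraries of WT2, WT5 and WT37, against 756, 713 and 869 CPM in mDOX libraries. Every pDOX library lay below every mDOX library, and the WT37 pair held both the lowest and the highest level. The means were 542 ± 108 CPM in pDOX and 779 ± 80.8 CPM in mDOX (SD, n = 3 each), and the exact two-sided permutation p was 0.1, the smallest that 3 against 3 libraries can give. In edgeR's quasi-likelihood test the log2 fold change was -0.52 ± 0.16 (SE, adjusted p = 0.568), and with the clone as a block -0.54 ± 0.14 (adjusted p = 0.141). These changes did not pass the threshold of 0.05. DESeq2 with the block called it (adjusted p = 0.0255, 1.08% of genes called). Without the low-count filter edgeR did so too, with adjusted p = 0.0460 (0.872% of genes called), or 1.09e-05 with the block (2.19%). Leaving out WT5, where CDH1 differed least, also brought it past the threshold in the blocked edgeR fit (-0.75, adjusted p = 0.00220, 6.25% of genes called). It did not pass in the blocked fit without WT37 (-0.32, adjusted p = 0.831) or without WT2 (-0.54, adjusted p = 0.550). Nor did it with a stricter low-count filter (-0.53, adjusted p = 0.154). In bulk RNA, fewer cells with a transcript and less of it per cell cannot be told apart, which holds for all values here. The summed epithelial markers were lower in pDOX as well. In each clone 7 of the 8 tested ones were, where 49.8% (WT2), 49.8% (WT5) and 50.2% (WT37) of all genes tested were lower. In WT5 the marker ELF3 was nearly level, at 42.39 CPM in pDOX against 42.46 CPM in mDOX. CDX2, a transcription factor of the intestine, was the marker higher in each clone, with 706, 546 and 795 CPM in pDOX libraries of WT2, WT5 and WT37, against 481, 455 and 590 CPM in mDOX libraries. The part of these markers in the CDH1 and CDH3 values was not tested.

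CDH3 (ENSG00000062038, chromosome 16, 68636189 to 68722616, plus strand) encodes P-cadherin, a classical cadherin first described in placenta. Its level was 70.4, 86.8 and 65.9 CPM in pDOX libraries of WT2, WT5 and WT37, against 113, 105 and 139 CPM in mDOX libraries. Again the conditions did not overlap, and WT37 showed the widest gap. The means were 74.4 ± 11.0 CPM in pDOX and 119 ± 17.7 CPM in mDOX (SD, n = 3 each, exact permutation p = 0.1). With the clone as a block CDH3 fell with DOX by 0.68 on the log2 scale (SE 0.14, edgeR adjusted p = 0.0432). Leaving the block out gave the same log2 fold change, -0.68, with an SE of 0.15, and it missed the threshold (adjusted p = 0.344), whereas DESeq2 without the block passed (adjusted p = 0.0299). The blocked call was lost without WT2 (-0.67, adjusted p = 0.276), without WT37 (-0.47, adjusted p = 0.508) and with a stricter low-count filter (-0.67, adjusted p = 0.0603). Without WT5 the blocked value was -0.88 (adjusted p = 0.00117, 6.25% of genes called).

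Read against all genes, 1 of the 8 tested members fell and 0 rose in the blocked edgeR fit, which called 1.3% of the 11732 genes tested, 0.639% as lower and 0.656% as higher. Without the block edgeR called 0% of the genes, and 0 of the members, although 709 genes had an unadjusted p below 0.05. DESeq2 without the block called 0.486% of genes, among them CDH3 and no other member. The median log2 fold change of the 8 members in the blocked fit was -0.05, beside 0.0062 over all genes tested, and 5 of the 8 were below 0, beside 48.9% of all genes. How many of all genes lack overlap between the conditions, or move the same way in every clone, was not counted. For single genes these patterns are descriptions only.

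**Figure D2:**
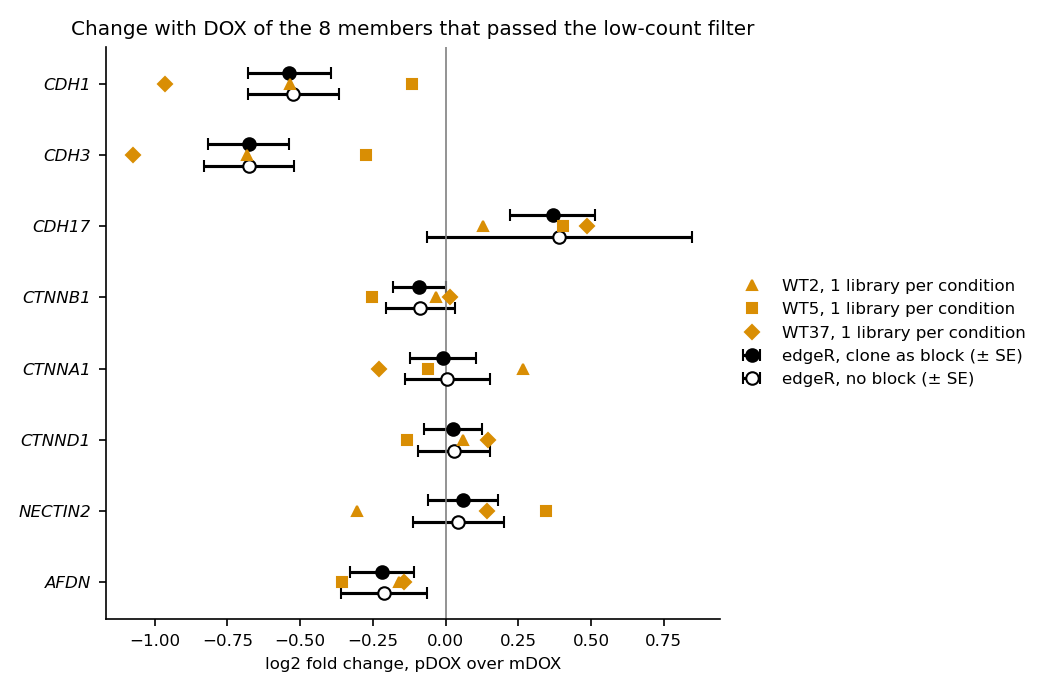
Log2 fold change of pDOX over mDOX (x axis) for the 8 tested members (y axis), from edgeR with the clone as block (filled circles) and without it (open circles), bars showing the SE, and the log2 ratio in each clone from 1 library per condition (orange). CDH1 and CDH3 lie left of 0 in all 3 clones, farthest in WT37, while CTNNA1, CTNNB1, CTNND1 and NECTIN2 have clones on both sides of 0.

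Within clones, where 1 library per condition allows no test, CDH1 had log2 ratios of -0.53 (WT2), -0.11 (WT5) and -0.96 (WT37) with DOX. The exact 95% intervals, which cover counting error only, were -0.60 to -0.47, -0.18 to -0.05 and -1.02 to -0.90 in the same order of clones. For CDH3 the ratios were -0.68 in WT2, -0.27 in WT5 and -1.07 in WT37, with intervals of -0.86 to -0.50, -0.44 to -0.11 and -1.23 to -0.92. Both genes had the same order of clones, and for each gene the intervals of the 3 clones did not overlap. A test of that order would need replicate libraries within clones.

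CDH1 and CDH3 kept a narrow ratio to each other, which was not particular to this pair. Per CTNNB1 read, CTNND1 ran from 0.268 to 0.339 and CTNNA1 from 0.184 to 0.251 over the libraries. CDH1 had 7.42, 7.58 and 6.76 reads per CDH3 read in pDOX libraries of WT2, WT5 and WT37, against 6.70, 6.79 and 6.27 in mDOX libraries. The ratio was higher with DOX in each clone, but the conditions overlapped (exact permutation p = 0.2, a test that leaves out the pairing by clone). Over the same libraries the CPM of CDH1 varied 1.95-fold and that of CDH3 2.10-fold between the lowest and the highest library. The correlation of their log2 CPM over the 6 libraries was r = 0.976, a description of libraries that share clones and depth. The other pairs among the 8 members had r between -0.77 and 0.67.

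**Figure D3:**
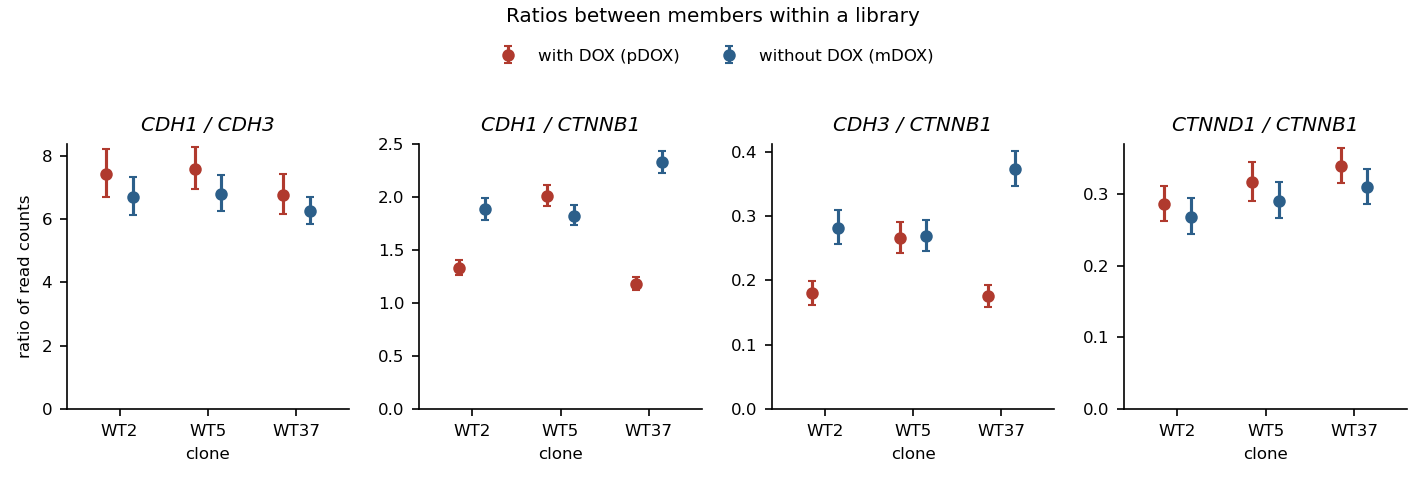
Ratio of read counts between 2 members in the same library (y axes, starting at 0) by clone (x axis), pDOX in red and mDOX in blue, with exact 95% intervals for counting error. CDH1 over CDH3 stays between 6.27 and 7.58 and CTNND1 over CTNNB1 between 0.268 and 0.339, while CDH1 over CTNNB1 spans 1.18 to 2.33.

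Set against CTNNB1, which binds the tails of both cadherins, CDH1 did not differ in the same way in all clones. There were 1.33, 2.01 and 1.18 CDH1 reads per CTNNB1 read in pDOX libraries of WT2, WT5 and WT37, against 1.89, 1.83 and 2.33 in mDOX libraries. WT5 had the higher ratio with DOX and the other 2 clones had the lower one, so the conditions overlapped (exact permutation p = 0.3). In WT5 the counting intervals of the 2 libraries overlapped as well, at 1.91 to 2.12 in pDOX and 1.74 to 1.92 in mDOX. CDH3 per CTNNB1 read was 0.180, 0.265 and 0.175 in pDOX against 0.281, 0.269 and 0.372 in mDOX. There the conditions did not overlap (exact permutation p = 0.1), but in WT5 the counting intervals of the 2 libraries did, at 0.242 to 0.290 in pDOX and 0.246 to 0.294 in mDOX. In all, 6 ratios between members were compared, and the exact permutation test of 3 against 3 libraries cannot go below p = 0.1.

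The 2 genes are also neighbours. CDH3 and CDH1 lie head to tail on the plus strand of chromosome 16, with 14608 bases from the end of CDH3 to the start of CDH1. The genes on either side did not pass the test. ZFP90, before CDH3, had a blocked log2 fold change of 0.07 ± 0.15 (SE, adjusted p = 0.889), a value that turned to -0.03 without WT2. TANGO6, after CDH1, had 0.21 ± 0.18 (adjusted p = 0.667). The annotation places AC099314.1 opposite CDH1 and AC126773.2 opposite CDH3, over 347 and 694 exon bases. Those antisense genes had 0 to 4 and 6 to 17 reads per library, few beside the 3177 to 6347 reads of CDH1 and the 428 to 1013 reads of CDH3.

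CDH17 (ENSG00000079112, chromosome 8, 94127171 to 94217303, minus strand) encodes liver-intestine cadherin, which has a short tail that does not bind catenins. It had 12.7, 22.3 and 41.7 CPM in pDOX libraries of WT2, WT5 and WT37, against 11.6, 16.8 and 29.7 CPM in mDOX libraries. The level was higher with DOX in 3 of 3 clones, but the clones differed by more than the conditions, which overlapped (25.5 ± 14.8 CPM in pDOX and 19.4 ± 9.33 CPM in mDOX, SD, n = 3 each, exact permutation p = 0.6). The log2 fold change with the clone as a block was 0.37 ± 0.15 (SE, edgeR adjusted p = 0.303), and without it 0.39 ± 0.46 (adjusted p = 0.974). Without the pDOX library of WT37 the unblocked value turned to -0.16. As a share of the reads of the 3 cadherins, CDH17 took 2.09%, 2.90% and 7.53% in pDOX libraries of WT2, WT5 and WT37, against 1.32%, 2.02% and 2.86% in mDOX libraries. The exact binomial intervals for WT37 were 6.75% to 8.37% in pDOX and 2.50% to 3.26% in mDOX. E-cadherin transcripts made up most of that pool everywhere, from 80.5% in pDOX WT37 to 86.3% in pDOX WT2.

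CDH17 was also the 1 member that differed between clones. With DOX as a covariate, the clone term passed for CDH17 (edgeR's quasi-likelihood F test, adjusted p = 0.00114), for 1 of 8 members, where 6.84% of all genes tested passed. WT37 was above WT2 by 1.55 ± 0.18 on the log2 scale (SE, adjusted p = 0.000624, 5.83% of genes called) and above WT5 by 0.86 ± 0.17 (adjusted p = 0.0143, 5.92% of genes called). DESeq2 did not call the difference between WT37 and WT5 (adjusted p = 0.0636). WT5 exceeded WT2 by 0.68 ± 0.19, short of the threshold (adjusted p = 0.154, 1.02% of genes called). Each clone has 2 libraries, 1 per condition, so this test takes the DOX difference to be the same in all clones. With WT37 left out, the clone term did not pass for CDH17 (adjusted p = 0.232).

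**Figure D4:**
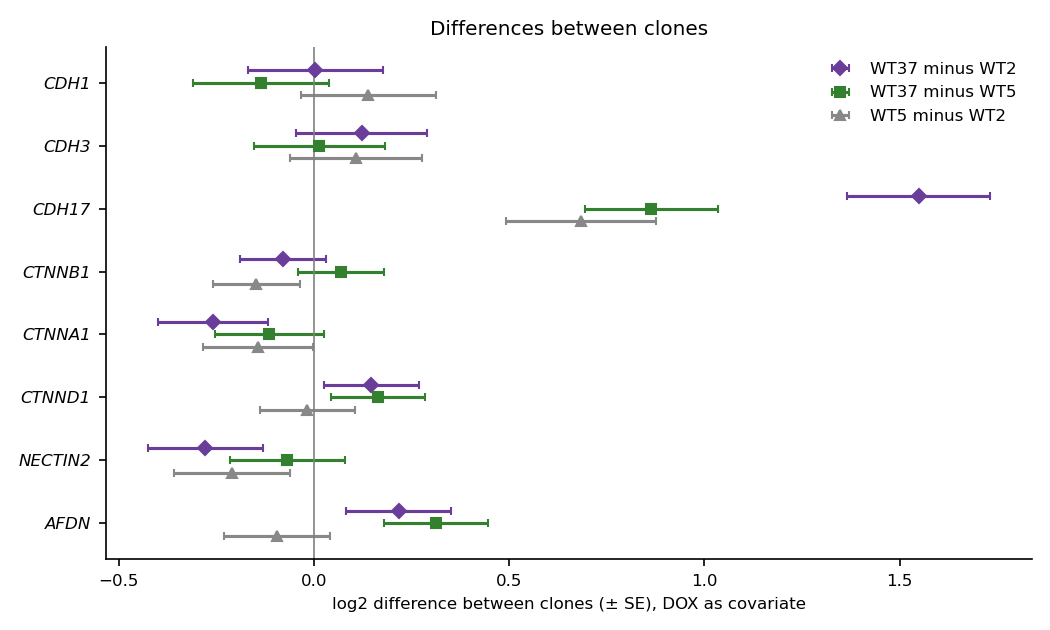
Log2 difference between clones (x axis, with the SE as bars) for the 8 tested members (y axis), from edgeR with DOX as a covariate. CDH17 lies at 1.55 for WT37 minus WT2, while the other 7 members lie between -0.28 and 0.31 in all 3 comparisons.

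For the other 7 tested members the clone differences ran from -0.28 (NECTIN2, WT37 minus WT2) to 0.31 (AFDN, WT37 minus WT5), with adjusted p of 0.182 or more. CDH1 differed by 0.00 ± 0.17 between WT37 and WT2 over both conditions, although WT37 held both its lowest and its highest library.

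Catenin transcripts showed no difference past the threshold. All 3 had blocked log2 fold changes between -0.09 and 0.03, and their clones were on both sides of 0. The levels of pDOX and mDOX overlapped for each of them.

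CTNNB1 (ENSG00000168036, chromosome 3, 41194741 to 41260096, plus strand) encodes beta-catenin, which also acts as a coactivator in Wnt signalling. It had 392, 327 and 377 CPM in pDOX libraries of WT2, WT5 and WT37, against 401, 390.0 and 373 CPM in mDOX libraries. With the TMM scaling WT5 was the 1 clone whose interval excluded 0, with a log2 ratio of -0.25 (-0.34 to -0.17). Without that scaling the interval of WT37 lay above 0 as well. The means were 365 ± 33.8 CPM in pDOX and 388 ± 14.3 CPM in mDOX (SD, n = 3 each, exact permutation p = 0.5). The blocked log2 fold change was -0.09 ± 0.09 (SE, edgeR adjusted p = 0.727), and -0.0068 without WT5.

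CTNNA1 (ENSG00000044115, chromosome 5, 138610967 to 138935034, plus strand) encodes alpha-E-catenin, the link to actin. Its levels were 98.5, 80.1 and 69.5 CPM in pDOX libraries of WT2, WT5 and WT37, against 81.9, 83.4 and 81.5 CPM in mDOX libraries. The mDOX libraries were nearly level, with an SD of 1.02 CPM, while the pDOX libraries spread on both sides of them with an SD of 14.7 CPM. CTNNA1 had log2 ratios of 0.27 in WT2 (0.08 to 0.45) and -0.23 in WT37 (-0.40 to -0.06), the latter interval including 0 without the TMM scaling. Its blocked log2 fold change was -0.01 ± 0.11 (SE, edgeR adjusted p = 0.985), and the sign turned with the block.

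CTNND1 (ENSG00000198561, chromosome 11, 57753243 to 57819546, plus strand) encodes p120-catenin, which holds cadherins at the cell surface. It stood at 112, 104 and 128 CPM in pDOX libraries of WT2, WT5 and WT37, against 108, 114 and 115 CPM in mDOX libraries. The blocked log2 fold change was 0.03 ± 0.10 (SE, edgeR adjusted p = 0.942), a sign that turned without WT37. In reads per CTNNB1 read it had 0.286, 0.317 and 0.339 in pDOX against 0.268, 0.291 and 0.310 in mDOX libraries, higher with DOX in each clone but with overlapping conditions (exact permutation p = 0.3). The annotation has a read-through gene, TMX2-CTNND1, that shares 321 exon bases on the same strand, so the CTNND1 count is uncertain to that extent.

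Nectin and afadin transcripts did not pass the test either. NECTIN2 differed in direction between clones, AFDN was slightly lower with DOX in all 3, and NECTIN4 was scarce and lower in all 3.

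NECTIN2 (ENSG00000130202, chromosome 19, 44846175 to 44889228, plus strand) encodes an adhesion molecule that is also a ligand of immune receptors. It had 126, 136 and 122 CPM in pDOX libraries of WT2, WT5 and WT37, against 155, 107 and 110 CPM in mDOX libraries. WT2 was lower with DOX and the other 2 clones were higher, by log2 ratios of -0.30 in WT2 (-0.45 to -0.16), 0.34 in WT5 (0.20 to 0.49) and 0.14 in WT37 (0.0036 to 0.28). Over the clones the blocked log2 fold change was 0.06 ± 0.12 (SE, edgeR adjusted p = 0.879), with a sign that turned without WT5.

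AFDN (ENSG00000130396, chromosome 6, 167826922 to 167972023, plus strand) encodes afadin, the actin-binding partner of nectins. It had 52.8, 46.1 and 61.6 CPM in pDOX libraries of WT2, WT5 and WT37, against 58.9, 58.9 and 68.1 CPM in mDOX libraries. Each clone was lower with DOX, while the conditions overlapped, with WT37 above the other clones in both (53.5 ± 7.79 CPM in pDOX and 62.0 ± 5.26 CPM in mDOX, SD, n = 3 each, exact permutation p = 0.3). The blocked log2 fold change was -0.22 ± 0.11 (SE, edgeR adjusted p = 0.434), and only in WT5 did the within-clone interval exclude 0 (-0.58 to -0.13).

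NECTIN4 (ENSG00000143217, chromosome 1, 161070995 to 161089599, minus strand) encodes a nectin of skin and placenta that many carcinomas carry. It had 1, 4 and 6 reads in pDOX libraries of WT2, WT5 and WT37, against 6, 7 and 17 reads in mDOX libraries. The conditions did not overlap in CPM, at 0.506 ± 0.315 in pDOX and 1.55 ± 0.673 in mDOX (SD, n = 3 each, exact permutation p = 0.1). In WT2 the log2 ratio from 1 against 6 reads was -2.82 with a counting interval of -8.34 to 0.23, and WT37 was the 1 clone whose interval excluded 0 (-3.20 to -0.16). With no filter edgeR gave -1.56 ± 0.68 (SE, adjusted p = 0.668), and -1.57 ± 0.62 with the block (adjusted p = 0.261).

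Promoter windows of 5 members were in the RefSeq promoter table (GRCh38.p14), CTNNA1 with 4 windows and CTNNB1, NECTIN2, NECTIN4 and AFDN with 1 each, and those of CDH1, CDH3, CDH17 and CTNND1 were not used here. They were searched on both strands for CACCTG and its reverse complement CAGGTG, the E-box that ZEB proteins are known to bind. AFDN had 4 copies of CACCTG, at positions -150, -126, -114 and -16 from the start in the RefSeq promoter table. NECTIN4 had 1, at -38. The windows of CTNNA1, CTNNB1 and NECTIN2 held none. Those of AFDN, CTNNB1 and CTNNA1 begin downstream of the gene starts given above, which follow GENCODE, so they lie within the genes as placed there. Of the 35116 promoters in the table, 20.6% held at least 1 copy of either form and 0.168% held 4 or more. The shorter CACCT or AGGTG, which lies within the longer motif, was in 51.6% of promoters. The windows of AFDN (chr6:167827385-167827684, plus strand) and NECTIN4 (chr1:161089509-161089808, minus strand) are shown because both genes were lower with DOX in 3 of 3 clones, and that of CTNNB1 (chr3:41199255-41199554, plus strand) because it holds no match. Each is 300 bases long and runs 5′ to 3′ on the strand of the gene, and capitals mark the CACCTG matches. The windows shown were thus picked by direction of change and by match, and neither AFDN nor NECTIN4 passed a test with DOX. A match in these letters is a description. It was tested neither as a binding site nor for a link with DOX.
AFDN: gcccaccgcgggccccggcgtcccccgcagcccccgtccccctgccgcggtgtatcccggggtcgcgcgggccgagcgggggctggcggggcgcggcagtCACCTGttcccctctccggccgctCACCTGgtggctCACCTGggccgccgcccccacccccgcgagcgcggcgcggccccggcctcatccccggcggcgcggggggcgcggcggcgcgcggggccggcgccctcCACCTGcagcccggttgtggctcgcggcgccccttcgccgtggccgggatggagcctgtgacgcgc
NECTIN4: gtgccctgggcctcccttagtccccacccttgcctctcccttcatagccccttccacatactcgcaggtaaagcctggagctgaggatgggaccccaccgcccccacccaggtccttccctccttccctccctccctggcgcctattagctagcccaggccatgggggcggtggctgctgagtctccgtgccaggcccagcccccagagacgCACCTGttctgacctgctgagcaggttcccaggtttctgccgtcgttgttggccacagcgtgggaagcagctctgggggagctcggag
CTNNB1: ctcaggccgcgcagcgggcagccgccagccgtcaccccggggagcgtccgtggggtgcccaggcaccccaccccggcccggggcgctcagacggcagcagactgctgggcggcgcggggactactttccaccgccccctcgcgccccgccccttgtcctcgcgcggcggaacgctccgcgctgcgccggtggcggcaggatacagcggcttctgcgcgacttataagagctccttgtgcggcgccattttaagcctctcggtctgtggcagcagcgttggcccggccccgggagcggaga

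Around the 9 members, 75 genes of 6 lists passed the low-count filter: other cadherins, other catenins, other nectins and nectin-like genes, linkers to actin and microtubules, genes of cadherin processing and turnover, and partners of beta-catenin. In the blocked edgeR fit 1 of them fell and 1 rose, against 0.639% and 0.656% of all genes. Their median log2 fold change was -0.0057, beside 0.0062 over all genes, and 40 of the 75 were below 0. Without the block 0 passed in edgeR's test.

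LIMA1, which encodes EPLIN, a protein that joins the cadherin-catenin complex to actin, was the gene that fell. It had 112, 131 and 56.0 CPM in pDOX libraries of WT2, WT5 and WT37, against 189, 157 and 106 CPM in mDOX libraries. It was lower with DOX in each clone, though the conditions overlapped, with WT37 low in both. The log2 fold change was -0.64 ± 0.12 with the block (SE, edgeR adjusted p = 0.0347) and -0.59 ± 0.31 without it (adjusted p = 0.8995). The call was lost without WT2 (-0.58, adjusted p = 0.293) and without WT37 (-0.50, adjusted p = 0.408), and the unblocked value was -0.30 without the pDOX library of WT37.

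PTPRK, a receptor tyrosine phosphatase known to act on junction proteins, was the gene that rose. It had 102, 92.3 and 159 CPM in pDOX libraries of WT2, WT5 and WT37, against 70.3, 74.1 and 88.9 CPM in mDOX libraries, with no overlap between the conditions. Its log2 fold change was 0.57 ± 0.11 with the block (SE, edgeR adjusted p = 0.0360) and 0.60 ± 0.20 without it (adjusted p = 0.642). This call too was lost without WT2 (0.59, adjusted p = 0.234) or without WT37 (0.43, adjusted p = 0.547). With no low-count filter PTPRK passed without the block too (adjusted p = 0.0151, 0.872% of genes called). Without the pDOX library of WT37 the unblocked value was 0.32.

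By list, 1 of 23 tested linker genes fell (LIMA1) and 1 of 22 processing genes rose (PTPRK), with list medians of -0.0049 and 0.012. The other 4 lists had 0 genes past the threshold in the blocked edgeR fit. Their median log2 fold changes were 0.09 for 6 other cadherins, -0.10 for 6 other catenin family genes, 0.37 for 4 other nectins and nectin-like genes and -0.07 for 14 beta-catenin partners.

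**Figure D5:**
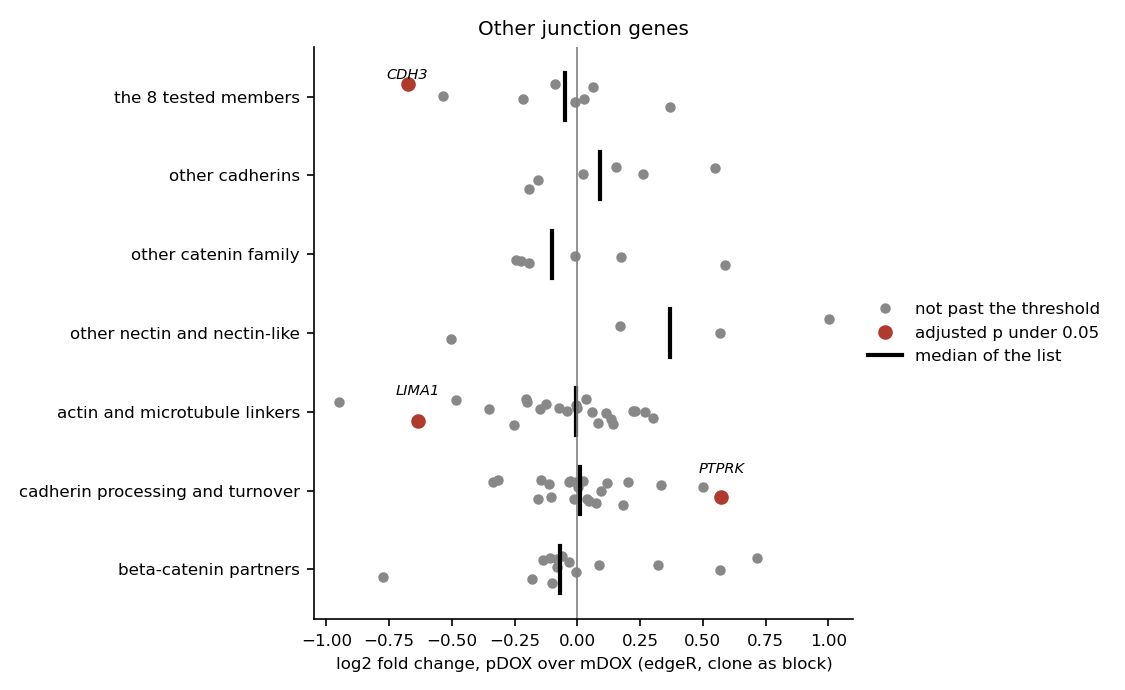
Log2 fold change of pDOX over mDOX in the blocked edgeR fit (x axis) for the 8 tested members and for each tested gene of the 6 lists (rows, points spread vertically for sight), with the median of each as a black bar and genes past the threshold in red. CDH3, LIMA1 and PTPRK are the 3 genes past it.

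The most abundant gene of the catenin family list was JUP, plakoglobin, which serves both adherens junctions and desmosomes. It had 476, 436 and 474 CPM in pDOX libraries of WT2, WT5 and WT37, against 558, 490 and 597 CPM in mDOX libraries. The conditions did not overlap, but the blocked log2 fold change of -0.24 ± 0.09 (SE, edgeR adjusted p = 0.232) did not pass. CTNNAL1, an alpha-catenin-like gene, had -0.01 ± 0.09 (adjusted p = 0.976), a sign that turned without WT5.

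Among nectin-like genes, PVR and CADM1 came close to the threshold on opposite sides of 0. PVR, also called nectin-like 5, had 57.1, 70.4 and 59.4 CPM in pDOX libraries of WT2, WT5 and WT37, against 84.8, 81.3 and 99.0 CPM in mDOX libraries, with no overlap (blocked log2 fold change -0.51 ± 0.12 SE, edgeR adjusted p = 0.0685). CADM1, an adhesion molecule of the same superfamily, had 37.2, 35.4 and 95.3 CPM in pDOX against 31.3, 25.5 and 51.2 CPM in mDOX libraries (0.57 ± 0.14, adjusted p = 0.0788). Both passed in the blocked fit with no low-count filter, which called 2.19% of all genes (PVR adjusted p = 0.00161, CADM1 adjusted p = 0.00119). Both also passed in the blocked fit without WT5, which called 6.25% of all genes. There PVR had -0.66 (adjusted p = 0.00439) and CADM1 had 0.64 (adjusted p = 0.0297). The blocked value of CADM1 was 0.36 without WT37, and its unblocked value, 0.63, was 0.0047 without the pDOX library of WT37. NECTIN3, a partner of NECTIN2, was nearly limited to 1 clone, with 4, 1 and 61 reads in pDOX against 1, 1 and 33 reads in mDOX libraries of WT2, WT5 and WT37. It did not pass the filter and was named after its values were seen.

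FAT1, a giant cadherin-related protein, and CELSR1, a cadherin of planar polarity, were the most abundant tested genes of the list of other cadherins. FAT1 had 233, 210 and 344 CPM in pDOX libraries of WT2, WT5 and WT37, against 189, 227 and 230 CPM in mDOX libraries (blocked log2 fold change 0.26 ± 0.12 SE, edgeR adjusted p = 0.401). The blocked value of FAT1 was 0.45 and passed without WT5 (adjusted p = 0.0182, 6.25% of genes called), and was 0.094 without WT37. CELSR1 had -0.16 ± 0.19 (adjusted p = 0.782), a sign that turned without WT2. Of the 27 genes on that list the counts cover 18, and 12 of these did not pass the filter, CDH2 among them.

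Of the beta-catenin partners, AXIN2, a feedback inhibitor and standard target of Wnt signalling, had 240, 161 and 404 CPM in pDOX libraries of WT2, WT5 and WT37, against 162, 173 and 175 CPM in mDOX libraries. WT2 and WT37 were higher with DOX and WT5 was not, and the blocked log2 fold change was 0.57 ± 0.25 (SE, edgeR adjusted p = 0.422). AXIN2 passed with no low-count filter, both without the block (0.67, adjusted p = 0.00896, 0.872% of genes called) and with it (0.58, adjusted p = 0.0175, 2.19%). It also passed in the blocked fit without WT5 (0.91, adjusted p = 0.00253, 6.25%). With the block and no filter the SE of AXIN2 was 0.14, smaller than with the filter, although the counts were the same. Its blocked value was 0.24 without WT37, and so was the unblocked one without the pDOX library of WT37. PYGO2, a nuclear partner of beta-catenin, had -0.03 ± 0.10 (adjusted p = 0.923), with a sign that turned without WT2.

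The genes most like CDH1 over the 6 libraries, by Pearson's r of log2 (CPM + 0.5), were PRPS2 (r = 0.995), MYORG (0.992), MRPL49 (0.992), PCCA-DT (0.988) and IL1RN (0.987). Those most like CDH3 were PVR (0.991), DSP (0.989), SHQ1 (0.986), SLC6A20 (0.986) and TBC1D14 (0.985). DSP encodes desmoplakin, the plakin that ties desmosomes to keratin. With so few libraries, many genes come close: 192 had r above 0.9 with CDH1 and 181 with CDH3, of 11732 tested. Without the TMM scaling 2 of the 5 stayed for CDH1 and 1 of the 5 for CDH3.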

How the data were processed

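Messenger RNA of 6 DLD-1 libraries was read with the QuantSeq 3' FWD kit, per the labels' protocols. The authors deposited whole-number read counts per Ensembl gene, whose totals differ between libraries. The submitters' processing notes name the build GRCh38 and the tool DESeq2, with no role given for it. Which aligner, counting program or strand setting was used stands as not given in the sources used here. Overlapping antisense genes therefore cannot be separated. The 4 rows of reads given to no gene were left out. Gene names were looked up by Ensembl identifier in a symbol table (22056 named) and in GENCODE release 29 (4858 more), with 350 identifiers unnamed, and positions are those of GENCODE 29.

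The members, gene lists and tests were chosen with earlier results of these data known. Counts were tested with edgeR 4.0.16 in R 4.3.3 (quasi-likelihood test with robust squeezing, TMM scaling, filterByExpr, 11732 genes, Benjamini-Hochberg adjustment, threshold 0.05). The design without a clone term is the first fit, and the clone as a block the second. Libraries of 1 clone deviated together from their condition means across genes (WT2 r = 0.49, WT5 r = 0.28, WT37 r = 0.53), and the design text names the clones as replicates, so the clones pair the samples. The exact permutation tests do not use this pairing. Biological variation between libraries, as edgeR's coefficient, was 17.9% in the fit without clones and 10.9% in the blocked one. Standard errors are the log2 fold change divided by the square root of F. The fits were run on simulated counts with known changes. For DOX these were the same in every clone, so changes that differ between clones were not covered. Alternatives were DESeq2 1.42.0, limma-voom (limma 3.58.1), other size factors, no filter, a filter of 50 reads in 3 libraries, leaving out clones or libraries, and squeezing without the robust option, the last chosen after seeing the data. Within clones, exact conditional binomial intervals at 95% were used, and Poisson intervals for levels. All cover counting error only. Libraries of 1 condition differed by 6.11 to 18.3 times the chi-square degrees of freedom, so none was a duplicate of another in its condition. Pairs across conditions were not compared in this way. From each list the text names genes that pass in either fit, or otherwise the 2 tested genes of highest mean CPM, and the 5 genes most like CDH1 and CDH3. ZFP90 and TANGO6 are named as neighbours. A further list of signalling genes is not reported here.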

Additional observations from a re-analysis of the deposited data

Results flagged for a closer look

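NECTIN2 moved in opposite directions with DOX in different clones. Its log2 ratio of pDOX over mDOX was -0.30 in WT2, against 0.34 in WT5 and 0.14 in WT37, with counting intervals on opposite sides of 0. CTNNA1, at 0.27 in WT2 and -0.23 in WT37, was not flagged, because its WT37 interval included 0 without the TMM scaling. Each clone has 1 library per condition, so the difference between clones was not tested.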

How the results depend on the processing

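Without the block, edgeR called 0 members with DOX, and 2 with no filter on low counts (CDH1 and CDH3, 0.872% of all genes called). DESeq2 without the block called 1 (CDH3, 0.486%). Without the block the count was 0 under the other scaling, the stricter filter, limma-voom, squeezing without the robust option, and when clones or single libraries were left out. With the clone as replicate block edgeR called 1 (1.3%), also with DESeq2 size factors, limma-voom or squeezing without the robust option. With the block, 2 were called with no filter (2.19%) or with DESeq2 (1.08%), and 0 with the stricter filter. Over all fits that left out a clone or a library the count was 0 to 2, reaching 2 with the block and without WT5. Other junction genes called with DOX numbered 0 without the block, and 2 without the block or the filter (0.872% of all genes called). They numbered 2 with the block (1.3%), also with DESeq2 size factors, the stricter filter, DESeq2, limma-voom or squeezing without the robust option. With the block and no filter they numbered 6 (2.19%). When clones or libraries were left out they numbered 0 to 8, reaching 8 with the block and without WT5 (6.25%). Between clones 1 member was called (6.84% of all genes), and 0 to 1 when a clone was left out, 0 without WT37 (1.11%). In edgeR's fit of all libraries with TMM and the default filter, the block changed the calls of CDH3, LIMA1 and PTPRK and of no other member or list gene. For these counts, and for the reversals below, the cause was not tested. Over all genes, the blocked fit called 5 without WT37 (0.0431%), 8 without WT2 (0.0665%) and 743 without WT5 (6.25%), beside 152 with all clones (1.3%). With no filter the blocked SE also changed for the same counts. It was 0.097 against 0.143 with the filter for CDH1, and 0.097 against 0.085 for JUP.

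The log2 fold change of CTNNA1, 0.0059 without the block, was -0.0091 with it, -0.010 with the block and DESeq2 size factors, -0.0017 with the block and no filter, -0.00041 with the block and the stricter filter, -0.0098 with the block and DESeq2, -0.011 with limma-voom without and with the block, and -0.0091 with the block and no robust option. The WT37 minus WT2 difference of CDH1, 0.0035, was -0.00061 with DESeq2 size factors, -0.00096 with DESeq2, -0.0084 with limma-voom and -0.012 without WT5. When clones or libraries were left out, the log2 fold change with DOX ranged from -0.14 to 0.12 for CTNNA1, from -0.10 to 0.25 for NECTIN2, from -0.056 to 0.11 for CTNND1 and from -0.16 to 0.85 for CDH17. It also ranged from -0.18 to 0.12 for PYGO2, from -0.34 to 0.033 for CELSR1, from -0.070 to 0.20 for ZFP90 and from -0.13 to 0.10 for CTNNAL1. Among these, the blocked values whose sign differed from that of the blocked fit with all clones were 0.015 without WT5 and 0.10 without WT37 (CTNNA1), 0.032 (PYGO2), 0.033 (CELSR1) and -0.028 (ZFP90) without WT2, -0.077 (NECTIN2) and 0.038 (CTNNAL1) without WT5, and -0.036 (CTNND1) without WT37, and without the block CELSR1 was 0.030 without WT2. The log2 fold changes of CDH1, CDH3, CTNNB1 and AFDN kept their sign in all 25 alternatives. In all fits without a library, the lone condition mean rests on 2 libraries, and CDH17 turned without the pDOX library of WT37. NECTIN4 and ZEB2 values rest on few reads, at most 17 and 22 per library.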
